A study of Mus musculus with 8 samples.

Results

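The genes described here are 33 regulators of chromatin and DNA methylation, with some SWI/SNF subunits among them. The RefSeq annotation holds 34614 genes on the autosomes, X and Y. The 33 members were listed by symbol, with earlier results of these data known. Sites with at most 100 reads were taken within each gene and 1 kb on either side (the gene locus), and separately within 1 kb of either annotated end (the gene ends), on mouse genome build mm10. NOMe-seq was run on mouse embryonic fibroblasts (MEFs), which are primary connective-tissue cells taken from mouse embryos. There were 4 groups of 2 libraries: control cells on day 0 and cells on day 1 of Etv2-induced reprogramming, each with the GpC methyltransferase M.CviPI (treated) and without it (untreated). The ETS-family factor Etv2 commits cells to the endothelial and blood lineages. Each sample held 250000 cells, per the series' design text. The sources used here do not give the strain, the means by which Etv2 was supplied or whether replicates were separate cultures, and the fibroblast label was not checked against markers because DNA methylation alone was read.

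M.CviPI adds methyl groups to cytosines that follow a guanine, and it reaches them best where no nucleosome or other protein covers the DNA. After bisulfite conversion a methylated GpC cytosine therefore reports DNA that was open in that nucleus, while the untreated libraries report the background. The listed proteins work on the same packaging that the assay reads: remodellers of the CHD, ISWI and INO80 families slide, evict or exchange nucleosomes, acetyltransferases and deacetylases add and remove acetyl groups on histone tails, Polycomb and trithorax enzymes write repressive and activating histone methylation, and the DNMT and TET enzymes write and oxidise CpG methylation. Nearly all are expressed widely, and their promoters usually lie in CpG islands.

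Coverage was thin, and that bounds every value below. The 8 libraries held 439527 to 1012656 sites and 1693307 to 3577740 calls (each call being a read at a site), and the median site had 3 reads, which was also the fewest at any site. The 33 loci span 2413447 bp and held 719 to 1475 sites and 2267 to 4600 calls per library, in 196 to 390 stretches of neighbouring sites (gaps of at most 150 bp). Sites of a stretch share reads, so calls are not independent and the exact binomial (Clopper-Pearson) 95% intervals given here cover counting error only. None of the 3691 member sites seen with the enzyme was covered in all 4 treated libraries. The day 0 treated replicates shared 9 sites (1.14% of the sites of replicate 1 and 1.25% of those of replicate 2), and the day 1 treated replicates shared 5 (0.484% and 0.415%). Replicate libraries thus mostly read different DNA of the same genes. Of the 33 members, 21 had at least 20 calls in every library, and 19 loci overlapped another annotated gene, whose sites cannot be told apart from theirs.

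The DNA read near the starts of 5 members is shown because these are the promoter windows with at least 5 sites covered in treated libraries and because their levels run from nearly closed to nearly fully open. Each line gives the 250 bases before an annotated start from RefSeq (GRCm38.p6, the mm10 assembly), 5′ to 3′ along the gene. Capitals mark the covered GpC cytosines: C where the cytosine is on the printed strand and G where it is opposite.
Ino80, chr2:119477688-119477937, minus strand: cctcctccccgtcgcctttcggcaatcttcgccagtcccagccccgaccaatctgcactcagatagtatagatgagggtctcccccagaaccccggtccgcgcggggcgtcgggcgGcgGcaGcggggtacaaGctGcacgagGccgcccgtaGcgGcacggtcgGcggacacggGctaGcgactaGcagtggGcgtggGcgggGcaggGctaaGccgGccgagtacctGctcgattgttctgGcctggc
Kdm2b, chr5:122900368-122900617, minus strand: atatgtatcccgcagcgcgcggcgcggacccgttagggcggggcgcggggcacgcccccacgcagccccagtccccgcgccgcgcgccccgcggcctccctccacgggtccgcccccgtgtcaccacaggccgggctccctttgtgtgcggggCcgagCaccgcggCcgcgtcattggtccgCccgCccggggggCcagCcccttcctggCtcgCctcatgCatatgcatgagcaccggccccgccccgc
Chd9, chr8:90828585-90828834, plus strand: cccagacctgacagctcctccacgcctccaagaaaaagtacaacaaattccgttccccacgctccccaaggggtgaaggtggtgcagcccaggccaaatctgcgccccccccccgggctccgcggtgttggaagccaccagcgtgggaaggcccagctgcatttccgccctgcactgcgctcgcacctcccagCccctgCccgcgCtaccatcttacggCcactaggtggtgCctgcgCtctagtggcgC
Brd9, chr13:73937561-73937810, plus strand: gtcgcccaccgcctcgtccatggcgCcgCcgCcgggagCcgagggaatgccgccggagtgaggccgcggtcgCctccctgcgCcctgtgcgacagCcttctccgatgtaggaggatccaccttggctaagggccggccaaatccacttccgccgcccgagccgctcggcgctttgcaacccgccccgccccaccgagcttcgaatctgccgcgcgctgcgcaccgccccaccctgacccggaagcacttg
Ep300, chr15:81585964-81586213, plus strand: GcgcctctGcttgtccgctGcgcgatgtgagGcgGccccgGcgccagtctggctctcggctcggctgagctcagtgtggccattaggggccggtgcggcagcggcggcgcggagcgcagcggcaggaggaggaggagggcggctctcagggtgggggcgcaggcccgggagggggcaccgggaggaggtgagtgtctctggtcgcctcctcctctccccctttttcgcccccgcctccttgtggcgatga
Every covered site in the RefSeq promoter windows was a GpC cytosine followed by A, C or T, so none of them is also a CpG. In the day 0 treated replicate 1, 18 of the 19 Ino80 sites had some reads methylated and others not, and 1 had none. The 10 Kdm2b sites, in day 1 treated replicate 2, were the opposite: 7 had all reads methylated and the other 3 were mixed. Brd9 was nearly closed in day 1 treated replicate 1, with no methylated read at 6 of 7 sites. Chd9, in day 0 treated replicate 1, had 3 sites fully methylated, 3 with none and 1 between, and the 6 Ep300 sites of that library were all mixed. The windows of the 28 members with an entry in the table held 1731 GpC sites of this kind, and 73 (4.22%) were covered in any treated library. The ETS consensus letters CCGGAAG were searched on both strands in windows of 300 bases. They stood in 3 of 39 member windows (7.69%, Brd9 and Chd8) and in 2910 of 32851 of all promoter windows (8.86%). Overlapping Brd9 windows were counted apart, and shorter or other ETS sequences were not searched.

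Over whole loci the 33 genes were read as open to the enzyme to nearly the same degree on both days. Methylated calls were 798 of 2448 (32.6%, 95% interval 30.7 to 34.5) and 747 of 2267 (32.95%, 31.0 to 34.9) in the day 0 treated libraries. On day 1 they were 1039 of 3207 (32.4%, 30.8 to 34.0) and 1126 of 3734 (30.2%, 28.7 to 31.7). Both day 1 values lay below both day 0 values, but the higher of them by less than its counting error. The means were 32.8% ± 0.250 on day 0 and 31.3% ± 1.59 on day 1 (SD, n = 2 libraries each), a difference of -1.50 percentage points ± 1.61. Tet3, the deepest locus, carried much of it: without Tet3 the difference was -0.668. It was -0.377 without day 1 treated replicate 2, -2.62 without replicate 1 of that group and -0.694 over the genes alone, without their flanks. Over all protein-coding genes the level went the other way, from 29.3% to 30.5%, and over 85 other chromatin regulators from 30.0% to 31.3% with overlapping libraries. In the bulk libraries used here, a lower level cannot be told apart between fewer cells with open DNA and less methylation per cell.

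Without the enzyme the same loci read 2.09% (58 of 2771 calls) and 2.01% (46 of 2290) on day 0, and 0.891% (41 of 4600) and 1.19% (51 of 4299) on day 1. The untreated level was thus lower on day 1 in both libraries, by 1.01 points ± 0.217, and protein-coding genes went the same way (2.09% to 1.02%). Treated levels stood 30.7 points above untreated ones on day 0 and 30.2 points above on day 1. In the fit of edgeR's quasi-likelihood test, 20 of the 21 tested members were called higher with the enzyme on day 0 at an adjusted p under 0.05, as were 98.8% of all 5655 genes tested, and 21 of 21 on day 1 (99.9%). The exception, Chd8, had a fitted difference of 1.81 on the log2 odds scale (SE 1.17, adjusted p = 0.122), while limma called it too (adjusted p = 0.0442). All 21 members had both treated libraries above both untreated ones on each day, as did 99.3% of all genes on day 0 and 99.9% on day 1.

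**Figure D1:**
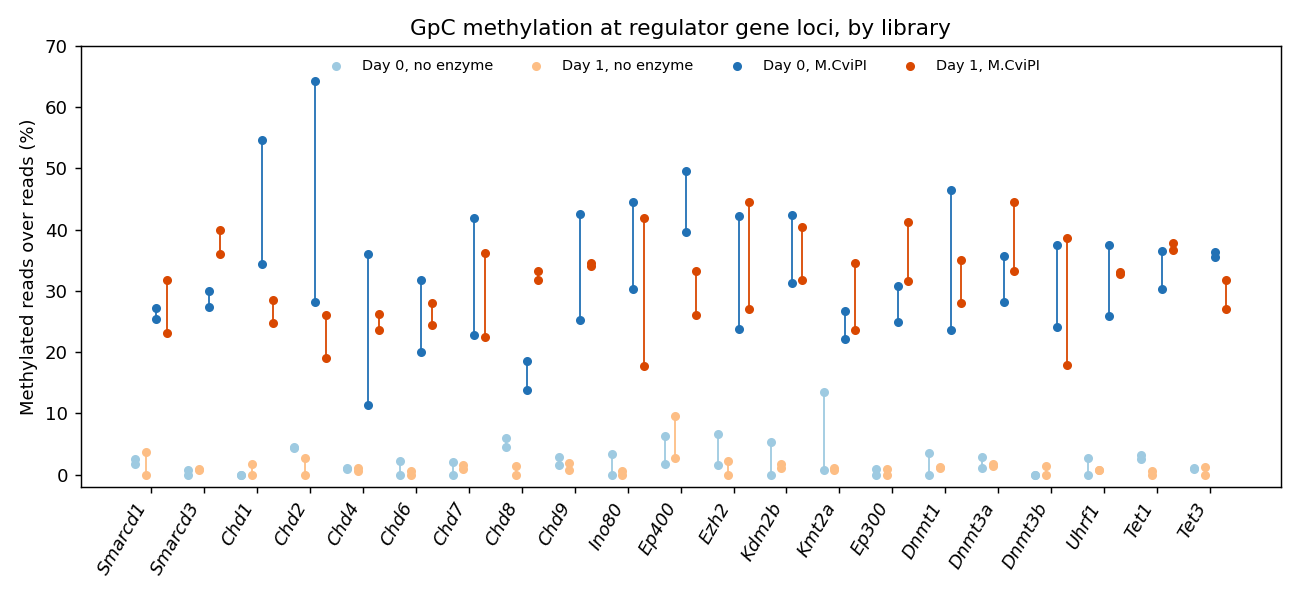
GpC methylation (methylated reads over reads, %) at the loci of the 21 members with at least 20 calls in every library; each point is 1 library and a line joins the 2 replicates of a group. Treated libraries lie between 11.3% (Chd4) and 64.3% (Chd2), untreated ones at or under 13.6% (Kmt2a), and replicates of a treated group often differ by as much as the days do.

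The days differed most at the gene ends, where the pooled level of the members was higher on day 0, though partly different members were read on each day. Within 1 kb of either end the treated level was 48.6% (211 of 434 calls, 95% interval 43.8 to 53.4) and 37.1% (88 of 237, 31.0 to 43.6) on day 0, against 31.6% (73 of 231, 25.7 to 38.0) and 28.4% (114 of 402, 24.0 to 33.04) on day 1. The groups did not overlap, and the difference of the means was -12.9 points ± 8.44 (SD, n = 2 libraries each). In the rest of the loci the days overlapped, at 29.1% and 32.5% on day 0 and 32.5% and 30.4% on day 1. Over protein-coding genes the ends went from 37.2% to 35.5%, and over the 85 other regulators they stayed level within their spread (38.5% and 38.8%). Untreated ends of the members read 2.05% on day 0 and 0.752% on day 1. The size of the difference depended on single libraries and genes: it was -7.15 without day 0 treated replicate 1, -18.6 without replicate 2 of that group, -9.47 without Ep400 and -15.6 without Tet3. With a window of 500 bp it was -20.4. Ends of Ep400 (50 of 61 calls methylated) and Tet2 (24 of 39) had treated calls on day 0 alone. Those of Dnmt1 (19 of 55) and Ezh2 (6 of 27) had them on day 1 alone. How much of the difference comes from which genes were read was not tested.

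Starts of active genes are usually more open than the rest. With starts and other ends pooled, the members' ends were more open than the rest on day 0, to a degree that differed between the replicates. They exceeded the rest of the locus by 19.5 points in day 0 treated replicate 1 and by 4.67 in replicate 2, and fell short of it on day 1 (-0.858 and -2.01). Protein-coding genes kept an excess throughout, of 9.15 and 8.69 points on day 0, between the members' replicates, and 5.81 and 5.35 on day 1. By distance, the 200 bp nearest an end held 61.4% ± 14.7 on day 0 and 31.5% ± 6.50 on day 1, each over 88 calls. Between 1 and 5 kb the order turned, with 29.5% ± 1.15 on day 0 and 33.4% ± 3.94 on day 1. Protein-coding genes turned the same way there (29.3% and 30.4%). Over protein-coding genes the nearest 200 bp went from 46.2% to 42.1%.

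**Figure D2:**
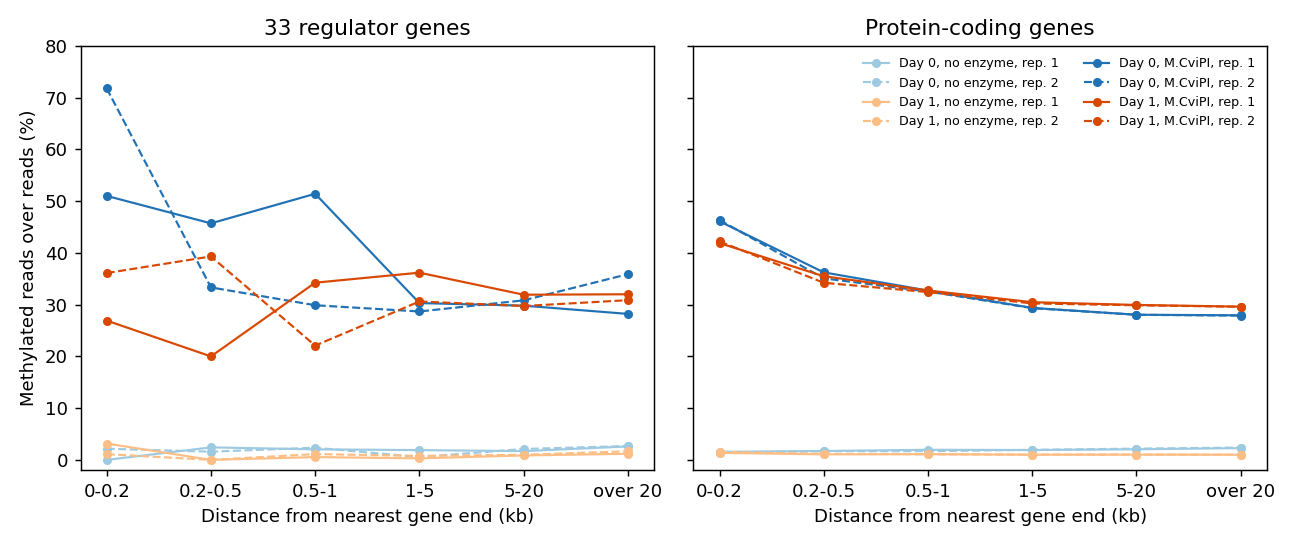
Methylated reads over reads (%) against distance from the nearest annotated gene end (kb, in bins) for the 33 regulator genes and for protein-coding genes, with 1 line per library. The day 0 treated lines of the members start at 51.0% and 71.8% within 0.2 kb and the day 1 lines at 26.9% and 36.1%, while all 4 treated lines of protein-coding genes decline smoothly from 41.9% or more.

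The strand was known for all members but Chd1, Chd2, Chd3, Chd7 and Hdac1, and in these 28 it let the start be told from the other end. Start here means the outermost annotated end on that side. In some members, such as Smarcd3 and Tet3, it lies far from the RefSeq promoter window. Within 1 kb of the start, the day 0 treated libraries read 171 of 315 (54.3%, 95% interval 48.6 to 59.9) and 31 of 57 calls (54.4%, 40.7 to 67.6). Those of day 1 read 36 of 118 (30.5%, 22.4 to 39.7) and 67 of 226 (29.6%, 23.8 to 36.1). The groups did not overlap at the starts, at 54.3% ± 0.0709 and 30.1% ± 0.610 (SD, n = 2). These SDs are far smaller than the counting error of each library and understate the error. The untreated libraries read 1.06% to 1.72%. At the other end the order was reversed and the spread wide, with 17.1% and 24.7% on day 0 against 37.8% and 26.9% on day 1. Means at the other end were also higher on day 1 over protein-coding genes (30.2% and 31.9%). The same held for the 65 other regulators (32.2% ± 4.96 and 34.8% ± 0.0801), with overlapping libraries. Starts of 17492 protein-coding genes went from 41.6% to 38.3%, and those of 65 other regulators from 45.0% ± 6.26 to 41.8% ± 6.82. The starts of different members were read on each day, however. Those of 11 members had treated calls on both days, and over them the level was 46.1% (106 of 230 calls) on day 0 and 32.0% (70 of 219) on day 1. These starts did not all go the same way. Brd7, Brd9, Eed, Ep300, Hdac2 and Ino80 were lower on day 1, while Chd9, Smarcd2 and Smarcd3 were higher. Smarca5 and Tet3 overlapped between the days. The Tet3 start read 8 of 16 and 4 of 24 calls on day 0, and 0 of 3 and 10 of 21 on day 1. Several of these starts had few calls on at least 1 day. Another 7, read on day 0 alone, were at 67.6% (96 of 142), and 7 read on day 1 alone were at 26.4% (33 of 125), so the shift in which genes were read moves with the difference between the days. How much of the difference it accounts for was not tested.

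No member had 10 calls at its ends in each of the 4 treated libraries, so the starts named next were chosen after their values were seen, for their depth or level. Ep400, the motor subunit of the TIP60 complex that deposits the histone variant H2A.Z, had the most open start on day 0 among those with at least 10 calls in a library, with 39 of 49 calls methylated (79.6%) in replicate 1 and 11 of 12 (91.7%) in replicate 2. No treated call fell there on day 1, so the Ep400 start has no comparison between days. Ep300, which encodes the acetyltransferase p300, was the only start with more than 30 calls on both days. It read 25 of 33 (75.8%) in day 0 replicate 1, and 15 of 49 (30.6%) and 15 of 36 (41.7%) in the day 1 libraries. The day 0 value was above both, but a single day 0 library covered the start. In the RefSeq promoter window alone, whose first 250 bases are shown above, Ep300 read 12 of 18 calls (66.7%) in that library and 6 of 8 (75%) in day 1 replicate 1, so the lower day 1 level lay outside that window. Ino80, the motor of the complex of that name, read 28 of 57 (49.1%) in day 0 replicate 1 and 1 of 15 (6.67%) in day 1 replicate 2, at other sites of the same kilobase. In the printed Ino80 window with its next 50 bases, that day 1 library had 3 of 6 calls methylated (50%). The first site there (position 119477683) lay just outside the kilobase, so that level and the kilobase's are not of the same sites. Tet2, which oxidises 5-methylcytosine, read 24 of 39 (61.5%) in day 0 replicate 1 and had no treated call at its start on day 1. Starts that were mostly closed included Brd9 on day 1 (1 of 21 calls, 4.76%) and Smarcd3 in day 0 replicate 1 (1 of 19, 5.26%). The RefSeq promoter window of Smarcd3 (chr5:24601953-24602252) lies further inside the gene and had no treated call. The Smarca5 start, read in 3 libraries, gave 4 of 9 and 9 of 12 calls on day 0 and 7 of 12 on day 1.

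**Figure D3:**
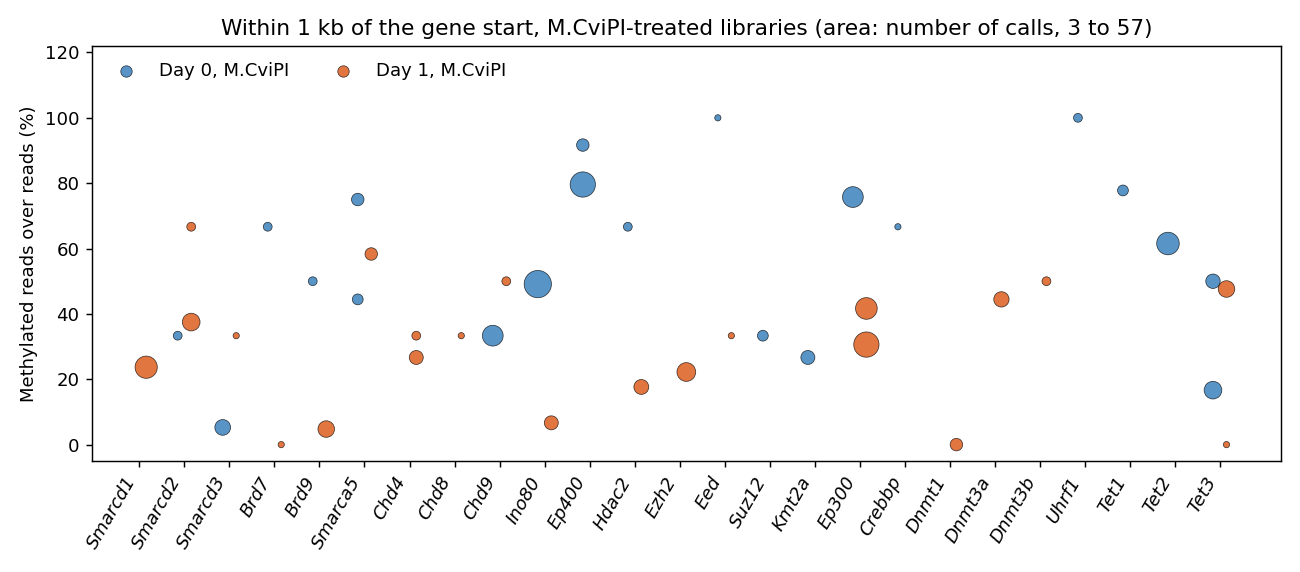
Methylated reads over reads (%) within 1 kb of the gene start in treated libraries, for the 25 members with a treated call there; each point is 1 library and its area grows with the number of calls (3 to 57). Ep400 (79.6% and 91.7%) and Ep300 (75.8%) stand high on day 0, and most starts have a point on 1 day only or points of few calls.

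Gene by gene, no change between the days passed the test at the loci. In edgeR's quasi-likelihood fit of 5655 genes, 0 were called between the day 0 and day 1 treated libraries (0%), 176 (3.11%) had an unadjusted p under 0.05, and limma called 0. Of the 21 members tested, 0 were called by edgeR and 0 by limma, and 1 (Chd2) had an unadjusted p under 0.05 in edgeR. All of them had an adjusted p of 0.999. The fitted change was above 0 in 13 members and below 0 in 8, with a median log2 odds change of 0.07, beside 0.10 and 59% above 0 over all genes. Both day 1 libraries were above both of day 0 at 4 loci (Smarcd3, Chd8, Ep300 and Tet1), where 23.1% of all genes were, and below at 4 (Chd1, Chd2, Ep400 and Tet3), where 12.8% were. Members' replicates differed by a median of 11.5 points on day 0 and 7.06 on day 1. The median size of the difference between days was 3.75 points. That difference is between means of 2 libraries, which vary less than single libraries, so the sizes are not directly comparable. Among the 30 other regulators deep enough to test, 0 were called. At gene ends 43 genes had 20 calls in every library and none of them was a member; edgeR and limma called 0 of these, 2 (4.65%) had an unadjusted p under 0.05 in edgeR, and the fitted change was above 0 in 69.8%.

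**Figure D4:**
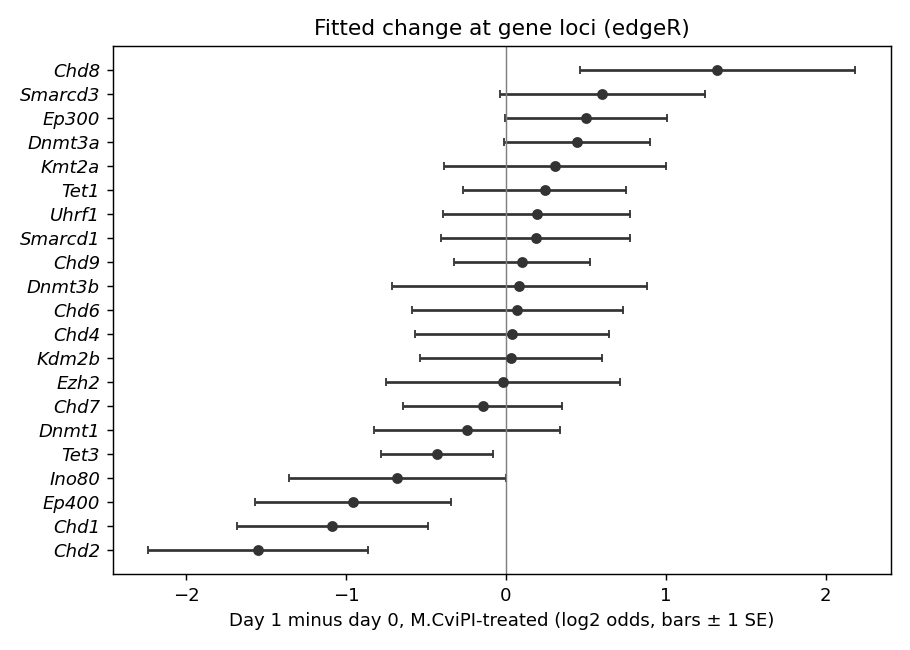
Fitted change of GpC methylation from day 0 to day 1 in treated libraries (log2 odds, edgeR) at the loci of the 21 members tested, with bars of 1 SE on each side. Values run from -1.55 (Chd2) to 1.32 (Chd8), and none passed the test after adjustment over 5655 genes.

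Among the CHD remodellers, which slide and space nucleosomes, the pooled treated level was 32.3% ± 3.85 on day 0 and 29.1% ± 2.39 on day 1, and its members went in opposite directions. Chd2 (chr7:73426652-73541746), whose locus overlaps the lncRNA gene Chaserr, gave 27 of 42 calls (64.3%) and 11 of 39 (28.2%) on day 0 and 17 of 89 (19.1%) and 36 of 138 (26.1%) on day 1. Its groups did not overlap, but the distance rests on 1 library: the second day 0 value is close to those of day 1. The fitted change of -1.55 (SE 0.69, unadjusted p = 0.0242, edgeR) was the lowest of the members. Chd1 (chr17:15704967-15772612), which binds methylated histone H3 at active genes, gave 35 of 64 (54.7%) and 32 of 93 (34.4%), then 36 of 126 (28.6%) and 33 of 133 (24.8%). Both day 1 libraries of Chd1 lay below both of day 0, with a fitted change of -1.09 (SE 0.60). Chd8 (chr14:52198151-52258042), a remodeller that restrains Wnt signalling, went the other way, from 5 of 36 (13.9%) and 5 of 27 (18.5%) to 27 of 85 (31.8%) and 20 of 60 (33.3%). It was the least open of the tested loci on day 0, and its fitted change of 1.32 (SE 0.86) was the highest.

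The other deep CHD loci did not separate by day. Chd4 (chr6:125095980-125130591), the motor of the NuRD complex, ranged from 6 of 53 (11.3%) to 27 of 75 (36.0%) on day 0 and read 33 of 126 (26.2%) and 22 of 93 (23.7%) on day 1, between its day 0 replicates. Chd6 (chr2:160946978-161109086) read 28 of 88 (31.8%) and 18 of 90 (20%), then 32 of 114 (28.1%) and 11 of 45 (24.4%). At Chd7 (chr4:8690402-8868449), known for its role in neural crest development, the values were 34 of 149 (22.8%), 57 of 136 (41.9%), 63 of 174 (36.2%) and 25 of 111 (22.5%). The replicates of Chd7 lay far apart on each day and the groups overlapped almost fully. Chd9 (chr8:90828302-91054516), the longest locus here, read 55 of 218 (25.2%) and 51 of 120 (42.5%) on day 0 and 129 of 378 (34.1%) and 71 of 205 (34.6%) on day 1. For Chd4, Chd6, Chd7 and Chd9 the fitted change lay between -0.15 and 0.10 and turned sign when a single library was left out. Chd3, the other NuRD motor, was too shallow to test and read 13 of 36 (36.1%) and 19 of 48 (39.6%) on day 0 and 7 of 27 (25.9%) and 19 of 81 (23.5%) on day 1, without overlap.

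The INO80 family showed the widest difference of any role, from 41.7% ± 8.32 to 28.9% ± 11.4, with overlapping libraries. At Ep400 (chr5:110664373-110770927) the calls were 56 of 113 (49.6%) and 19 of 48 (39.6%) on day 0 and 37 of 111 (33.3%) and 18 of 69 (26.1%) on day 1. Its groups did not overlap, and the fitted change was -0.96 (SE 0.61). Much of the day 0 signal came from the start described above, which supplied 39 of the 56 and 11 of the 19 methylated calls. Ino80 read 32 of 72 (44.4%), 10 of 33 (30.3%), 34 of 81 (42.0%) and 21 of 118 (17.8%), so its replicates spanned the days. Smarca5, the ISWI motor, had 9 to 59 treated calls per library and levels of 35.8% ± 12.3 and 35.2% ± 16.2.

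The listed SWI/SNF subunits (Smarcd1, Smarcd2, Smarcd3, Brd7 and Brd9) had the lowest level of the remodeller groups on day 0, at 28.0% ± 0.485. They were slightly higher without overlap on day 1, at 29.7% ± 0.861. The day 0 libraries held only 34 of 120 and 94 of 340 methylated calls, so these SDs understate the error. Smarcd3 (chr5:24592622-24624456), the subunit used in heart and muscle, read 17 of 62 (27.4%) and 30 of 100 (30.0%) on day 0 and 30 of 75 (40%) and 22 of 61 (36.1%) on day 1. Both later values were above both earlier ones, while the fitted change was 0.60 (SE 0.64). Smarcd1 had 25.4% to 27.3% on day 0 and 23.1% to 31.8% on day 1. Smarcd2, Brd7 and Brd9 each had at most 21 calls in both day 0 treated libraries, with levels of 16.7% to 50% there.

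Enzymes that modify histones showed no common direction. Ep300 (chr15:81586209-81652077) was higher on day 1 over its whole locus: 46 of 149 (30.9%) and 18 of 72 (25.0%) became 50 of 121 (41.3%) and 79 of 250 (31.6%). Within 1 kb of its start the level was lower on day 1, but a single day 0 library covered that start. Its RefSeq promoter window was not lower. The groups at the Ep300 locus did not overlap, though the nearest libraries were almost equal, and the fitted change was 0.50 (SE 0.51). Its relative Crebbp ranged from 1 of 12 calls (8.33%) to 48 of 131 (36.6%). Kmt2a (chr9:44803355-44881352), a writer of activating H3K4 methylation, read 16 of 60 (26.7%) and 14 of 63 (22.2%), then 17 of 72 (23.6%) and 18 of 52 (34.6%), with overlapping days and a fitted change of 0.31 (SE 0.70). Ezh2, the catalytic subunit of Polycomb complex PRC2, read 23.8% and 42.2% on day 0 and 44.4% and 27.1% on day 1. Kdm2b, which recruits Polycomb to CpG islands, read 42.4%, 31.3%, 31.8% and 40.4%. The deacetylase genes were each missing from at least 1 treated library: Hdac1 read 31 of 82 calls on day 0 and 4 of 17 and 32 of 72 on day 1, and Hdac2 11 of 42 on day 0 and 15 of 53 on day 1. Of the other PRC2 genes, Eed read 5 of 18 and 10 of 23 calls in the library of each day that covered it, and Suz12 3 of 9 and 5 of 12 on day 0 and 9 of 35 on day 1. Kdm1a, which removes H3K4 methylation, had 3 calls in each of its shallower treated libraries, and its deeper ones read 14 of 45 on day 0 and 9 of 45 on day 1.

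The DNA methylation enzymes and their maintenance factor Uhrf1 read 31.7% ± 2.51 on day 0 and 34.0% ± 5.87 on day 1. Dnmt3a (chr12:3801559-3914443), a de novo methyltransferase, gave 56 of 199 (28.1%) and 71 of 199 (35.7%) on day 0 and 60 of 135 (44.4%) and 43 of 129 (33.3%) on day 1. The second day 1 library fell between the day 0 ones, and the fitted change was 0.44 (SE 0.46). Uhrf1 (chr17:56303337-56323486), which guides Dnmt1 to newly copied DNA, read 33 of 127 (26.0%) and 15 of 40 (37.5%), then 40 of 121 (33.1%) and 38 of 116 (32.8%). Dnmt1 itself read 46.5% and 23.6% on day 0 and 35.1% and 28.0% on day 1. Dnmt3b read 24.1% and 37.5%, then 38.7% and 17.9%.

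TET genes as a group were lower on day 1 without overlap, at 31.0% ± 2.50 against 35.9% ± 0.118, and Tet3 supplied most of their calls. The small day 0 SD understates the error, as it did at the starts. Tet3 (chr6:83362373-83457208) gave 134 of 368 (36.4%, 95% interval 31.5 to 41.6) and 118 of 332 calls (35.5%, 30.4 to 41.0) on day 0. On day 1 it gave 120 of 444 (27.0%, 22.9 to 31.4) and 197 of 620 (31.8%, 28.1 to 35.6). It had the closest day 0 replicates of the named loci and both day 1 values lay below them, but the fitted change of -0.43 (SE 0.35) did not pass the test. Tet1 (chr10:62804570-62887469) went from 34 of 112 (30.4%) and 34 of 93 (36.6%) to 45 of 119 (37.8%) and 82 of 224 (36.6%). The nearest Tet1 libraries of the 2 days were almost equal, and the fitted change was 0.24 (SE 0.51). Tet2, with 9 calls in 1 day 1 library, read 41.5% and 35.9% on day 0 and 22.2% and 26.2% on day 1.

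Single stretches within the genes, each of few calls in 1 library, ran from nearly closed to nearly fully open. Among stretches of at least 8 sites, the most methylated was at an inner promoter of Kdm2b (26 of 30 calls, 86.7%, chr5:122900396-122900464, 29766 bp from the nearest gene end), whose sequence is shown above. Next came the Ep400 start (chr5:110770513-110770588, 79.6%), and a stretch inside Dnmt1 reached 27 of 41 calls (65.9%). The least methylated was in Chd4, with 1 of 26 calls (3.85%). None of these 4 stretches had a site in any other treated library, as was so for 92.1% to 95.2% of treated stretches per library.

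The untreated background of single members was low, and its day difference did not pass the test in any of them by edgeR. Of the 21 tested, 0 were called by edgeR (2 had an unadjusted p under 0.05) and 1 by limma, beside 296 of 5655 genes called (5.23%), of which 292 were lower on day 1 (5.16%) and 4 higher (0.0707%). Their median fitted change was -0.63 on the log2 odds scale, against -1.01 over all genes. Both day 1 untreated libraries were below both of day 0 at 3 loci (Chd2, Chd8 and Tet1; 34.3% of all genes) and above at 1 (Smarcd3; 5.52%). Tet1 had the lowest fitted value, with 4 of 127 and 3 of 120 methylated calls on day 0 and 1 of 189 and 0 of 185 on day 1. The 0 of 185 would allow a share of up to 1.62% if calls were independent. The fitted change of Tet1 was -3.06 (adjusted p = 0.164, edgeR). Net of the untreated change, 0 of the 21 members were called by edgeR (3 at an unadjusted p under 0.05) and 0 by limma, while edgeR called 200 genes higher (3.54%). The background was at times concentrated in a few reads. At Kmt2a, day 0 untreated replicate 1 read 11 of 81 calls (13.6%) and replicate 2 read 1 of 131 (0.763%). Of those 11, 9 lay in a stretch of 10 sites (chr9:44835996-44836101) where 9 sites had exactly 1 methylated read. At Ep400 a stretch of 8 sites (chr5:110694706-110694872) in day 1 untreated replicate 2 likewise had 1 methylated read of 3 at each site, and it gave 8 of that library's 11 methylated calls of 114 there. Without day 0 untreated replicate 2, the Kmt2a difference between treated and untreated on day 0 was no longer called (1.03 on the log2 odds scale, adjusted p = 0.249, edgeR). In the first-listed RefSeq promoter window of each member, 0 of 170 untreated calls were methylated. That would allow a share of up to 1.76% if calls were independent. Sites of a stretch share reads, so the true bound is higher.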

How the data were processed

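NOMe-seq of 8 libraries was used, 2 in each of 4 groups set by day and enzyme, as the sample titles give them. The deposited files list cytosines with the fraction of reads methylated and the count of reads, both read from the values since the files have no header. The build is mm10 per the submitters' processing notes; the sources used here do not name the aligner, caller, filters or duplicate handling, and duplicates would narrow the spread of calls. Methylated reads were the rounded product of fraction and count, and sites over 100 reads were left out, of which the members had 0.

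Genes came from RefSeq tables of the same build, and strand from the table of promoter windows. Calls were summed per gene and library, and methylated and unmethylated counts were fitted with edgeR 4.0.16 (quasi-likelihood, R 4.3.3) over all 8 libraries with a mean per group and a library effect, for genes with at least 20 calls in every library, adjusted over all genes tested (Benjamini-Hochberg, threshold 0.05). limma 3.58.1 on log2((methylated + 1)/(unmethylated + 1)) was an alternative, with others on depth, windows, weighting and left-out libraries. Both were tested on simulated data. The rest was computed in Python 3.11.15 (pandas 2.3.3, scipy 1.17.1, numpy 2.4.6, matplotlib 3.10.9). Levels pooled over members have no test.

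Values in every library are printed for the 12 deepest members with 20 calls in every library and for the 3 lowest p among tested members in each direction; other members named were chosen after their values were seen. The members and lists were chosen with earlier results of these data known. The labels do not say that replicates are separate cultures, so p-values measure the spread between these libraries, which may be technical.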

Additional observations from a re-analysis of the deposited data

How the results depend on the processing

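The pooled difference of treated loci kept its direction under all alternatives but 2, which rest on little data: sites of at least 5 reads (24.8 points, 41 sites with 218 calls) and 1000 bp blocks read in every library compared (11.6 points, 2 blocks with 218 calls). The difference at treated ends kept its direction under every alternative that gave a value. Sites of at least 5 reads, equal weighting of members and shared blocks gave none there, and the first and the last gave none at untreated ends. Since the groups did not overlap at treated loci or ends, leaving out 1 library could not turn the direction. At treated ends the direction was thus not checked on shared DNA or with members weighted equally. Leaving out 1 member at a time was added after the data were seen. The untreated day difference was -1.34 at loci with members weighted equally and -2.22 in shared blocks. At untreated ends it was -2 with equal weights (1 member), -1.75 without Ep400 and -1.05 without Uhrf1. Treated minus untreated was 14.3 (5 reads), 30.0 (equal weights), 25.4 (blocks) and 30.2 (gene alone) on day 0, and 39.98 (5 reads) and 36.9 (blocks) on day 1.

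Counts of called genes moved as follows. For treated loci between days, a fit of only the 4 libraries compared called 3 genes against 0. For untreated loci it called 21 against 296, limma 950 (1 member), centred libraries 7, and leaving out 1 library gave 161 to 204. Net of untreated, limma called 1 against 200, centring 0, and leaving out 1 library gave 14 to 191. For the enzyme effect, 40 calls per library called 3277 genes on day 0 and 3280 on day 1 (of 3280 tested), with 11 of 11 members, and centring, which removes that effect by construction, called 8 and 6 genes and 0 members. At gene ends, 10 calls per library called 1 of 144 genes, only the 4 libraries 3 of 43, and leaving out 1 library 0 to 1; no member was tested at ends under any of these.

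Centring shifts all genes of a library alike. Under it the treated day change turned sign at Chd6 (-0.021), Chd9 (-0.027) and Uhrf1 (-0.0087), whose values were near 0. The enzyme effect, which centring removes, took negative values on day 0 at Chd6 (-0.33), Chd8 (-2.25), Kmt2a (-1.06) and Tet1 (-0.0099), and on day 1 at Chd1 (-0.54), Chd2 (-2.12), Chd4 (-0.48), Chd7 (-0.20), Chd8 (-0.30), Ep400 (-2.18) and Kmt2a (-0.47). Leaving out 1 library gave treated day changes of -0.75 to 1.37 at Chd4, -0.35 to 0.55 at Chd6, -0.76 to 0.52 at Chd7, -0.50 to 0.63 at Chd9, -0.061 to 0.71 at Kmt2a and -0.29 to 0.48 at Uhrf1. None of these day changes was called; the cause of the turns with a left-out library was not tested.

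No pairing by replicate number was seen: same-numbered libraries deviated together with correlations of -0.024 to 0.019 over 5655 genes. Since the libraries read mostly different sites, a pairing could go unseen in this check. With the replicate block, edgeR called 0 genes between days with the enzyme, 218 without it, 135 net, 5568 and 5649 for the enzyme effect on day 0 and day 1, and 0 at gene ends; the members called were 0, 0, 0, 20 and 21 at loci.

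Depth limits all of this, since most sites had 3 reads and the replicates read mostly different sites.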
